A study of Mus musculus with 20 samples.

Results

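The kidneys described here are the left kidneys of 10 of the 20 mice of the series, those whose genotype is labelled Kdm6afl/Y Pax8Cre+. Of these, 5 had the left ureter tied (unilateral ureteral obstruction, UUO) and 5 had sham surgery. They were chosen by genotype and treatment label alone, and every gene of the deposited gene table was compared between both groups. All mice were male, were aged about 8 weeks at surgery and were followed for 7 days, and each kidney gave 1 RNA library. In these mice (KDM6A TubKO), a Cre recombinase driven by the Pax8 promoter removes the floxed part of Kdm6a, which encodes the catalytic JmjC domain of the histone demethylase KDM6A. The other 10 kidneys came from Pax8Cre+ mice without the floxed gene (KDM6A Ctrl), 5 after UUO and 5 after sham surgery, and serve here for the spread between kidneys, for the test of a difference between genotypes and for values set beside those of KDM6A TubKO kidneys. Pax8-Cre is active along the tubule and also in the thyroid, RNA came from homogenates of whole kidneys, and the Y-linked paralogue Uty is still present in males. No label says how many litters the mice came from. Below, UUO and sham kidneys are those of KDM6A TubKO mice unless KDM6A Ctrl is written.

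Tying the ureter stops urine flow, and the kidney above the ligature dilates. The tubule cells lose transport and metabolic functions, switch on injury genes and release chemokines, immune cells enter, and pericytes and fibroblasts become myofibroblasts that lay down collagen. KDM6A takes methyl groups off a lysine of histone H3 (H3K27), a mark that Polycomb complexes place on silenced genes, and it also works as part of the MLL3/4 complexes at enhancers. The comparison asks which genes respond to obstruction in kidneys whose tubules were targeted for loss of this enzyme.

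The unit is FPKM, in which fragments are divided by the length of the transcript and by the size of the library, so levels can be set side by side between genes. FPKM hold no read counts, and sequencing depth is unknown. Kdm6a itself (ENSMUSG00000037369.17, GRCm38 chromosome X, 18162575 to 18279936, plus strand) had 3.46, 2.03, 4.21, 3.06 and 2.46 FPKM in UUO kidneys, against 1.61, 0.862, 1.57, 0.924 and 1.05 FPKM in sham kidneys. The UUO kidneys all lay above the sham kidneys, and Kdm6a rose by 0.87 ± 0.14 (SE; adjusted p = 1.82e-05) on the log2 scale. That call was lost when the libraries were quantile normalized (0.29, adjusted p = 0.0767). In KDM6A Ctrl kidneys Kdm6a had 2.3, 3.32, 3.24, 2.28 and 3.67 FPKM after UUO, against 2.33, 2.14, 1.94, 1.76 and 2.1 FPKM after sham surgery. KDM6A TubKO sham kidneys lay below KDM6A Ctrl sham kidneys without overlap (log2 difference -0.48, adjusted p = 0.0502), while the UUO kidneys of both genotypes overlapped. The gene value sums over all exons and all cells of the kidney, so it does not check the deletion. Defining kidney transcripts were present in every sham library, with Umod (uromodulin, the main urinary protein of the thick ascending limb) between 418 and 779 FPKM and Slc34a1 (the proximal phosphate transporter) between 524 and 744 FPKM.

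Obstruction changed most of the measured transcriptome. Of 13842 genes in the table, 8020 (57.9%) rose and 2307 (16.7%) fell at an adjusted p under 0.05 in limma, which fits all genes and all 20 kidneys together. All 5 UUO kidneys lay above all 5 sham kidneys for 6937 genes (50.1%) and below them for 1738 genes (12.6%). The groups did not overlap for 6868 of the genes that rose and for 1725 of those that fell. The study itself called genes at 1.5-fold or more when the p before adjustment was below 0.05, and by that threshold 5002 genes were higher and 1366 were lower after UUO. In an F-test that adds a library-size term to the model for each gene, as the Ballgown software does, 1 gene (Ccl5) passed the adjustment, and 1656 passed an unadjusted p under 0.05. That term was 22706 to 23353 in UUO kidneys and 17733 to 18463 in sham kidneys, so it cannot be told apart from surgery. The log2 fold change was at least 1 in 2385 of the genes that rose, at least 3 in 150 of them, at or below -1 in 715 of the genes that fell and at or below -3 in 19 of them.

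The genes that fell were fewer and more abundant. Genes that fell held 37.7% of all FPKM in UUO kidneys, against 69.5% in sham kidneys, and genes that rose held 47.9% in UUO kidneys, against 18.5% in sham kidneys. The median gene that rose had 5.82 FPKM in UUO kidneys and 2.54 FPKM in sham kidneys. The median gene that fell had 9.18 FPKM in UUO kidneys and 16.9 FPKM in sham kidneys. The summed FPKM of a library was 302995 to 316964 in UUO kidneys, against 352444 to 387375 in sham kidneys, and 34 to 80 genes were listed at 0 in UUO kidneys, against 229 to 325 in sham kidneys. FPKM are relative to the whole library. The median log2 fold change over all genes was 0.39 as deposited, and it moved by -0.23 when libraries were rescaled to 1 upper quartile and by -0.43 under quantile normalization. Rises made up 77.7% of the calls as deposited, 61.8% after upper quartile rescaling and 47.6% after quantile normalization. Each list of genes below is given beside the median of 0.39 over all genes, and a log2 change between 0 and 0.39 is below that of the median gene. No gene of the table had a highest group mean below 0.5006 FPKM. It holds 1626 genes whose mean was under 0.5 FPKM in sham kidneys but not in UUO kidneys, and 150 genes with the reverse, so genes that are low in sham kidneys are mostly those that passed through an obstructed group. In whole-kidney RNA, fewer cells of a type and less RNA per cell cannot be told apart.

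The genes with the largest rises were tubule injury, complement, protease, keratin and chemokine genes. Havcr1, which encodes the tubule injury protein KIM-1 (ENSMUSG00000040405.13, chromosome 11, 46735080 to 46779578), had 583, 253, 541, 414 and 334 FPKM in UUO kidneys, against 0.709, 0.408, 0.717, 0.762 and 1.96 FPKM in sham kidneys. The lowest UUO kidney was far above the highest sham kidney, and the log2 fold change was 7.78 ± 0.70 (SE; adjusted p = 8.11e-09). Lcn2, which encodes the iron-carrier-binding protein NGAL, had 188, 70.8, 230, 162 and 159 FPKM in UUO kidneys, against 0.781, 0.533, 1.2, 1.83 and 1.33 FPKM in sham kidneys. UUO mouse 2 had the lowest Havcr1 and Lcn2 of its group, and Lcn2 rose by 6.19 ± 0.47 (SE; adjusted p = 9.84e-10). Timp1, an inhibitor of matrix metalloproteinases, had 154, 36, 89.8, 74.5 and 79.3 FPKM in UUO kidneys, against 0.198, 0.316, 0.365, 0.405 and 0.219 FPKM in sham kidneys, a log2 fold change of 5.93 ± 0.37 (SE; adjusted p = 6.43e-11). C3, the central complement protein, had 226, 211, 176, 208 and 221 FPKM in UUO kidneys, against 2.47, 2.88, 1.97, 2.57 and 3.17 FPKM in sham kidneys, and its UUO kidneys were spread over a narrower range than those of Timp1 (log2 fold change 5.86 ± 0.38, SE; adjusted p = 1.14e-10).

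The rest of the 10 largest rises were Mmp7, Krt20, Sprr2f, Ubd, Vcam1 and Ccl12, at log2 fold changes of 5.45, 5.43, 5.31, 5.29, 5.15 and 5.19. Mmp7 encodes matrilysin, a secreted protease, and had 50.4, 27.8, 51.7, 33.4 and 79.2 FPKM in UUO kidneys, against 0, 0.141, 0, 0 and 0.18 FPKM in sham kidneys. Vcam1, an adhesion molecule that injured tubule cells and endothelium can carry, had 72.8, 67.4, 71.3, 70.2 and 75.7 FPKM in UUO kidneys, against 0.807, 1.19, 0.841, 1.07 and 1.37 FPKM in sham kidneys. The 5 UUO kidneys spanned 67.4 to 75.7 FPKM for Vcam1, and its log2 fold change was 5.15 ± 0.32 (SE; adjusted p = 6.29e-11). Krt20 and Sprr2f, a keratin and a cornified envelope protein of stressed epithelia, were listed at 0 in 2 and 4 of the 5 sham kidneys, and Ubd encodes the ubiquitin-like modifier FAT10. Spp1 (osteopontin, a secreted phosphoprotein) had the highest mean of any gene in UUO kidneys, with 11415, 6577, 8996, 9404 and 8554 FPKM in UUO kidneys, against 361, 402, 380, 486 and 388 FPKM in sham kidneys, and rose by 4.46 ± 0.25 (SE; adjusted p = 2.66e-11).

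The largest falls were in genes of distal segments, transporters and drug-metabolizing enzymes. Pvalb, which encodes the calcium-binding protein parvalbumin of the early distal convoluted tubule (ENSMUSG00000005716.16, chromosome 15, 78191114 to 78206400), had 0, 0.708, 0, 0 and 0 FPKM in UUO kidneys, against 16.3, 25.1, 22.7, 16.4 and 16.9 FPKM in sham kidneys. It was listed at 0 in every UUO kidney but that of mouse 2, so its fitted log2 fold change of -4.18 ± 0.15 (SE) depends on the pseudocount of 1. Egf, a growth factor made by the thick ascending limb and distal convoluted tubule, had 1.21, 18.1, 3.29, 1.76 and 3.54 FPKM in UUO kidneys, against 50.1, 72.7, 105, 111 and 52.1 FPKM in sham kidneys, a log2 change of -4.00 ± 0.42 (SE; adjusted p = 7.77e-08). UUO mouse 2 again stood nearest to the sham kidneys. Slc7a13, an amino acid transporter of the late proximal tubule, had 20.5, 103, 44.7, 29.3 and 16.3 FPKM in UUO kidneys, against 407, 584, 475, 460 and 552 FPKM in sham kidneys and fell by 3.81 ± 0.49 (SE; adjusted p = 1.08e-06). Klk1, tissue kallikrein of the connecting tubule, had 108, 423, 112, 142 and 264 FPKM in UUO kidneys, against 1673, 1954, 1823, 1768 and 1841 FPKM in sham kidneys, with a log2 fold change of -3.32 ± 0.27 (SE; adjusted p = 2.41e-09). The other 6 of the 10 largest falls were Cyp2d12, Nccrp1, Inmt, Slc22a8, Slc22a7 and Cyp2d9, with log2 fold changes between -3.28 and -3.99. Cyp2d12 and Cyp2d9 belong to a family of near-identical genes, and how reads were shared among its members is not given in the sources used here.

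**Figure D1:**
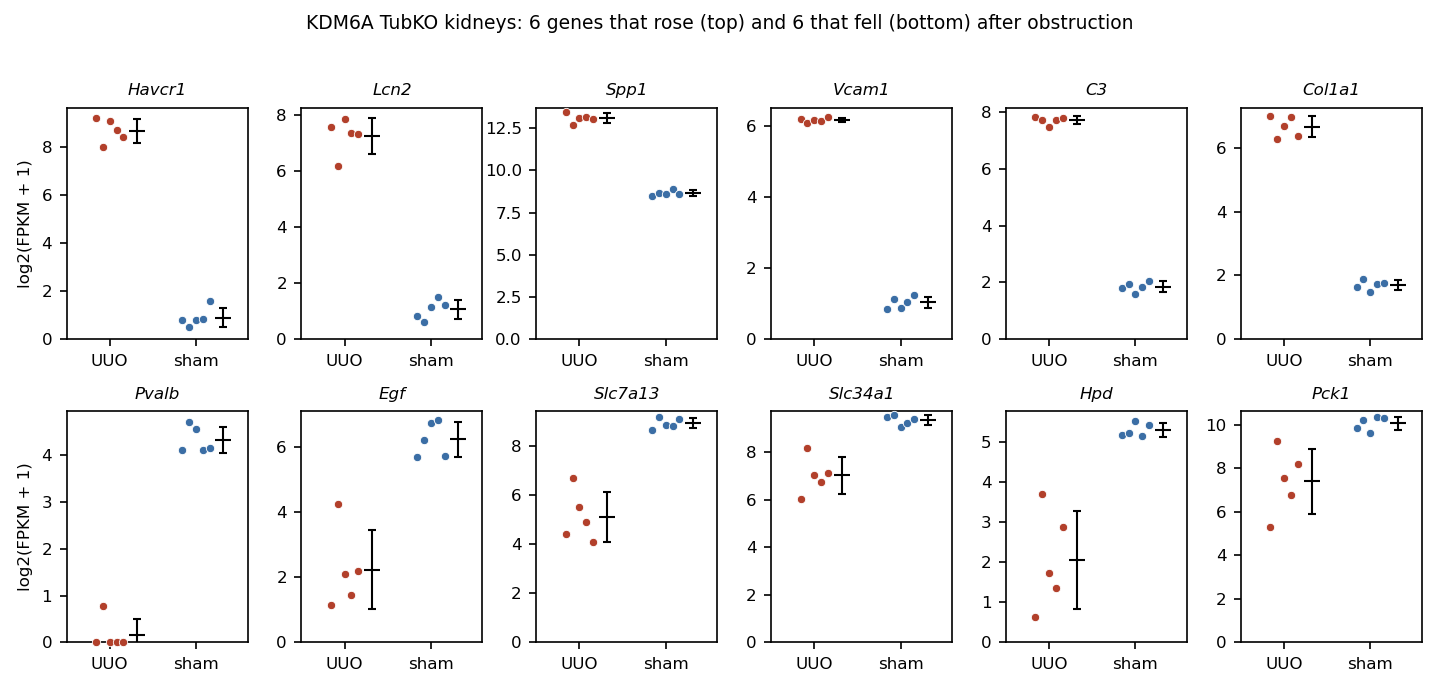
Level of 12 genes in each KDM6A TubKO kidney as log2(FPKM + 1), with the 5 UUO kidneys left of the 5 sham kidneys; black marks are the mean with its SD. For all 12 genes the groups do not overlap, and in each group the points run from mouse 1 to mouse 5, left to right. UUO mouse 2 is the UUO kidney nearest to the sham kidneys for every gene shown but C3.

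All 24 measured genes of a tubule injury list rose, with a median log2 fold change of 3.11 beside 0.39 over all genes, and none of them overlapped between groups. The list holds genes the study or its figures name, so its direction is not independent evidence. Sox9, a transcription factor that marks tubule cells in repair, had 24, 24.6, 22.1, 23.6 and 36.8 FPKM in UUO kidneys, against 0.172, 0.543, 0.19, 0.482 and 0.368 FPKM in sham kidneys, and rose by 4.32 ± 0.23 (SE; adjusted p = 1.26e-11). Krt8, Krt18 and Krt19, the simple epithelial keratins, had log2 fold changes of 1.16, 2.93 and 3.15. Cd44, the hyaluronan receptor, reached 3.76, S100a6 3.81, Anxa2 3.08 and Sox4 3.64. Clu, a secreted chaperone, had 488, 272, 540, 319 and 350 FPKM in UUO kidneys, against 49.5, 64.4, 57, 67.3 and 54.3 FPKM in sham kidneys, and rose by 2.69 ± 0.19 (SE). The smallest rise on the list was that of Krt7, at 0.94.

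Transport genes of the proximal tubule fell as a group. Of 28 measured, 27 fell and 1 rose, with a median of -1.87. Slc34a1 (sodium-phosphate cotransport) had 64.3, 288, 132, 106 and 136 FPKM in UUO kidneys, against 716, 744, 524, 596 and 678 FPKM in sham kidneys. Slc5a2, the SGLT2 glucose transporter of the early proximal tubule, had 16.1, 22.2, 14.6, 17 and 9.38 FPKM in UUO kidneys, against 96.6, 55.3, 56.2, 47.5 and 53.4 FPKM in sham kidneys. Both fell without overlap, with log2 changes of -2.32 ± 0.29 (SE; adjusted p = 6.35e-07) and -1.90 ± 0.29 (SE; adjusted p = 8.60e-06). Among drug and organic anion carriers, Slc22a6 (OAT1) and Slc22a8 (OAT3) fell by 2.59 ± 0.34 and 3.40 ± 0.47, and Slc22a6 spanned 18.1 to 93.5 FPKM over UUO kidneys, against 203 to 280 FPKM over sham kidneys. The neutral amino acid transporter Slc6a19 fell by 2.63, the sodium-hydrogen exchanger Slc9a3 by 2.11 and the water channel Aqp1 by 1.84. Slc13a1, a sodium-sulfate cotransporter, was the exception at 0.53 ± 0.15 (SE; adjusted p = 0.00333), with overlapping groups, and this call was lost after upper quartile rescaling (0.21, adjusted p = 0.211) and among the 6 mice with higher-numbered identifiers (0.22, adjusted p = 0.249).

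Endocytosis of filtered protein runs through megalin and cubilin on the same cells. Lrp2 (megalin) had 13.3, 32.2, 21.1, 15.2 and 18.9 FPKM in UUO kidneys, against 78, 94.3, 88.4, 106 and 81 FPKM in sham kidneys. Cubn (cubilin) had 6.45, 13.7, 8.27, 6.34 and 7.97 FPKM in UUO kidneys, against 27.4, 34.5, 30.2, 34.3 and 32 FPKM in sham kidneys. The groups were separate for both, with log2 fold changes of -2.16 ± 0.21 (SE; adjusted p = 2.21e-08) and -1.82 ± 0.16 (SE; adjusted p = 8.89e-09). Of the 9 genes of this list 7 fell and 1 rose, with a median of -0.52, and the chaperone Lrpap1 (-1.59) and the cubilin partner Amn (-0.86) were among those that fell. The gene that rose, Rab7b, encodes a small GTPase of late endosomes that is also found in macrophages, at 2.09 ± 0.14 on the log2 scale.

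The thick ascending limb did not respond in 1 direction. Of its 15 genes 11 fell and 3 rose, with a median of -1.05. Slc12a1 (NKCC2, the target of loop diuretics) had 40.7, 115, 47.8, 60.9 and 106 FPKM in UUO kidneys, against 111, 172, 231, 258 and 131 FPKM in sham kidneys, and the groups overlapped although the gene was called lower, with a log2 change of -1.32 ± 0.28 (SE; adjusted p = 2.44e-04). Umod had 440, 574, 481, 461 and 675 FPKM in UUO kidneys, against 418, 695, 703, 779 and 493 FPKM in sham kidneys, with no call (-0.21 ± 0.18, SE; adjusted p = 0.292), and it fell only after upper quartile rescaling (-0.53, adjusted p = 0.009). The 3 genes that rose were all claudins, which control the passage of cations between the cells of this segment. Cldn16 had 15.2, 13.7, 16.5, 16.8 and 22.7 FPKM in UUO kidneys, against 8.22, 9.56, 8.29, 8.48 and 7.17 FPKM in sham kidneys, and Cldn19 had 18.7, 14, 17.7, 14.3 and 17.9 FPKM in UUO kidneys, against 5.4, 7, 8.25, 9.6 and 5.41 FPKM in sham kidneys. Cldn14, whose protein blocks the pore made by the other two, had 1.96 to 2.57 FPKM in UUO kidneys, against values listed at 0 in 4 sham kidneys and 0.0447 FPKM in the other. Their log2 fold changes were 0.93 ± 0.17, 1.13 ± 0.17 and 1.74 ± 0.13.

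In the distal convoluted and connecting tubule, 9 of 17 genes fell and 4 rose, with a median of -0.93. The calcium-binding genes fell with Pvalb, with Calb1 (a calbindin) at 10.9, 20.9, 8.54, 6.05 and 10.6 FPKM in UUO kidneys, against 59.5, 113, 80.7, 97.1 and 86.1 FPKM in sham kidneys, and S100g (a calbindin) at a log2 fold change of -2.84 beside -2.91 ± 0.31 for Calb1. Slc12a3 (NCC, the thiazide-sensitive cotransporter) had 23, 25.9, 21.1, 19.6 and 22.8 FPKM in UUO kidneys, against 27.6, 47.9, 43.9, 43.9 and 37.2 FPKM in sham kidneys, a smaller log2 change of -0.79 ± 0.15 (SE; adjusted p = 1.16e-04). The calcium pump Atp2b1 and the channels Trpv5 and Trpm6, which take up calcium and magnesium, rose by 1.15 ± 0.08, 0.93 ± 0.24 and 0.60 ± 0.15. For Atp2b1 the groups were separate, while those of Trpv5 and Trpm6 overlapped and lost their calls under quantile normalization (0.53, adjusted p = 0.0631, and 0.05, adjusted p = 0.746). Trpv5 was also not called among the mice with higher-numbered identifiers (0.38, adjusted p = 0.0862). Stk39, a kinase that activates NCC, rose by 0.30 ± 0.11 as deposited and turned to -0.07 under quantile normalization.

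In the collecting duct, genes of both cell types were mostly lower or not called. Of 14 principal cell genes 6 fell and 3 rose, with a median of -0.33, whereas 10 fell and 2 rose after upper quartile rescaling and 8 fell and 2 rose under quantile normalization. Aqp2, the vasopressin-regulated water channel, had 42, 70.2, 66.3, 43.3 and 59.4 FPKM in UUO kidneys, against 156, 69, 65.2, 107 and 70.4 FPKM in sham kidneys, and was not called (-0.67 ± 0.37, SE; adjusted p = 0.112). It was called lower after upper quartile rescaling (-0.99, adjusted p = 0.0264) and in the fit of the KDM6A TubKO groups alone (-0.67, adjusted p = 0.0299). The basolateral water channels Aqp3 (-1.53) and Aqp4 (-1.91) fell. Of the sodium channel subunits Scnn1a fell by 1.27, and Scnn1b (0.05) and Scnn1g (-0.23) were not called, though Scnn1g was called lower after upper quartile rescaling (-0.53, adjusted p = 2.04e-04) and under quantile normalization (-0.51, adjusted p = 3.22e-04), among other settings. Gata3, a transcription factor of the collecting duct, and St6gal1, a sialyltransferase, rose by 1.01 ± 0.18 and 1.80 ± 0.13, and the pump regulator Fxyd4 by 0.35 ± 0.15, a value that was 0.00 under quantile normalization. Among 16 intercalated cell genes 12 fell and none rose, with a median of -0.72. Slc4a1 (the anion exchanger AE1 of acid-secreting cells, also carried by red blood cells) had 0.609, 0.886, 0.465, 0.257 and 0.328 FPKM in UUO kidneys, against 6.97, 5.41, 9.32, 5.12 and 3.66 FPKM in sham kidneys. Slc26a4 (pendrin, of bicarbonate-secreting cells) had 3.49, 7.93, 4.6, 3.22 and 4.58 FPKM in UUO kidneys, against 20.7, 20.8, 21.7, 20.6 and 16.1 FPKM in sham kidneys. Both fell, with log2 changes of -2.20 ± 0.19 and -1.91 ± 0.16, the ammonia channel Rhbg by 2.21 ± 0.17, and Foxi1, the transcription factor of these cells, was not called at 0.01.

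**Figure D2:**
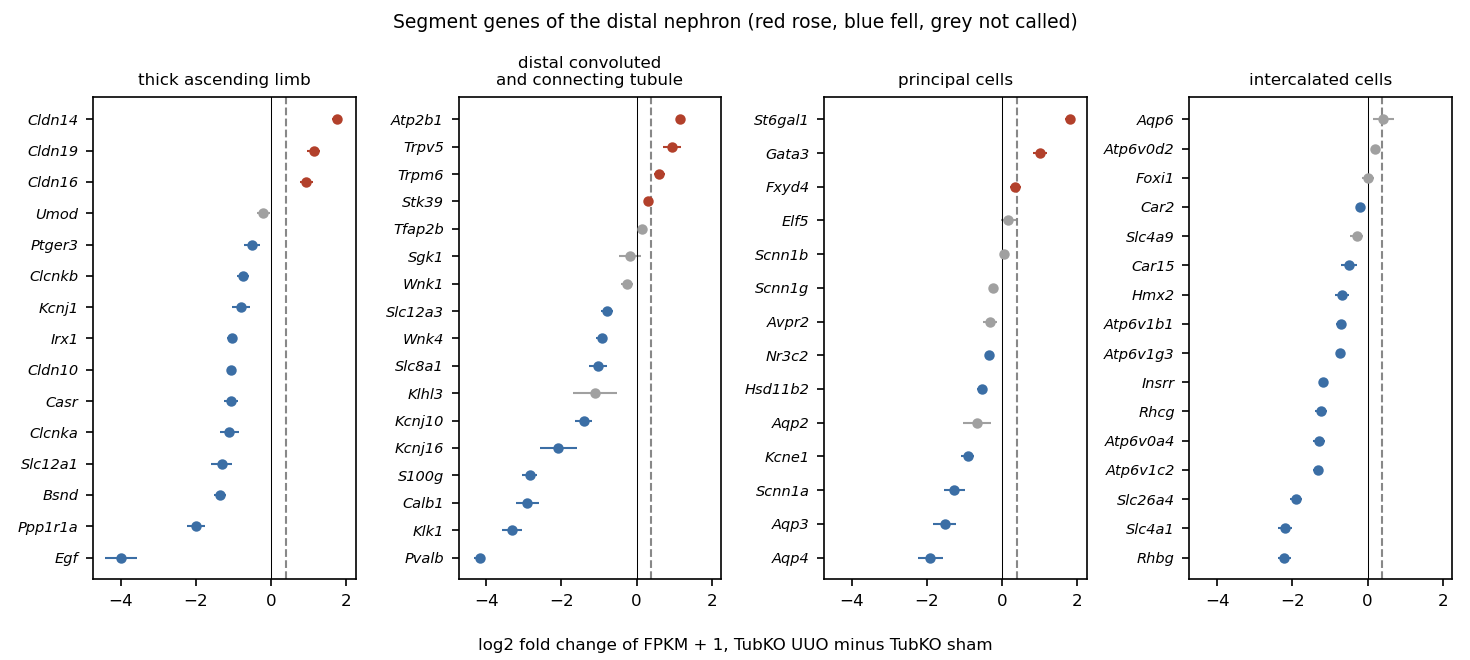
Log2 fold change (TubKO UUO minus TubKO sham) of each segment gene with its standard error; red genes rose, blue genes fell, grey genes were not called, and the dashed line is the median of all genes at 0.39. Cldn14, Cldn16 and Cldn19 of the thick ascending limb and the calcium and magnesium transport genes Atp2b1, Trpv5 and Trpm6 lie right of 0, while Egf and Pvalb lie furthest to the left.

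Genes that break down fatty acids and amino acids fell almost without exception. None of 32 fatty acid oxidation genes rose and 30 fell, with a median of -1.15. Ehhadh, an enzyme of peroxisomal oxidation, had 18.4, 73.4, 39.8, 17.9 and 49.2 FPKM in UUO kidneys, against 202, 214, 214, 246 and 290 FPKM in sham kidneys. Acadm, the medium-chain dehydrogenase of mitochondria, had 52.9, 107, 77.4, 65.8 and 78.5 FPKM in UUO kidneys, against 213, 213, 218, 236 and 224 FPKM in sham kidneys. The groups were separate for both, with log2 changes of -2.71 ± 0.36 (SE; adjusted p = 1.70e-06), the largest fall of the list, for Ehhadh and -1.56 ± 0.15 (SE; adjusted p = 1.48e-08) for Acadm. Slc25a20 (-0.28) was among the genes that did not pass the test. Amino acid breakdown and creatine synthesis showed a deeper median of -1.67, and 39 of 40 genes fell. Hpd, of tyrosine breakdown, had 0.554, 12, 2.3, 1.55 and 6.39 FPKM in UUO kidneys, against 35.1, 36.5, 45.4, 34.6 and 42.4 FPKM in sham kidneys, with a wide span among UUO kidneys, and fell by 3.25 ± 0.46 (SE; adjusted p = 2.84e-06). Gatm, which makes the precursor of creatine, had 26.4, 48.8, 34.6, 28 and 29.3 FPKM in UUO kidneys, against 153, 135, 98.8, 130 and 115 FPKM in sham kidneys.

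All 9 gluconeogenesis and fructose genes fell, with the deepest median of any list at -2.21. Pck1, the first committed enzyme of gluconeogenesis, had 38.1, 598, 189, 107 and 290 FPKM in UUO kidneys, against 920, 1177, 774, 1282 and 1245 FPKM in sham kidneys. G6pc, which releases free glucose, had 4.86, 40.1, 15.1, 8.44 and 11.4 FPKM in UUO kidneys, against 106, 143, 73.4, 181 and 103 FPKM in sham kidneys. Fbp1 had 42.2, 172, 104, 88.1 and 119 FPKM in UUO kidneys, against 467, 492, 393, 433 and 450 FPKM in sham kidneys. For each of these genes UUO mouse 1 was lowest and UUO mouse 2 was highest among UUO kidneys, and the log2 changes were -2.64 ± 0.46 (SE; adjusted p = 4.17e-05), -3.11 ± 0.37 (SE; adjusted p = 3.56e-07) and -2.21 ± 0.24 (SE; adjusted p = 9.74e-08). Glycolysis genes did not move together. Of 19 measured, 6 rose and 8 fell, with a median of -0.19, and 13 fell after upper quartile rescaling. Hk2, a hexokinase, had 4.76, 3.51, 4.88, 5.47 and 8.87 FPKM in UUO kidneys, against 0.103, 0.179, 0.205, 0.0463 and 0.109 FPKM in sham kidneys, and rose by 2.48 ± 0.17 (SE; adjusted p = 2.70e-10), and the lactate carrier Slc16a3 (0.90) and Pfkp (0.86) rose as well. The falls included Pfkm (-1.02), Eno1 (-0.76), Pgk1 (-0.71) and Gapdh (-0.41).

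Oxidative phosphorylation genes encoded in the nucleus fell less in size but nearly all at once. Of 49 measured, 46 fell and none rose, with a median of -0.70. Atp5b, the catalytic subunit of ATP synthase, had 110, 145, 138, 78.2 and 105 FPKM in UUO kidneys, against 342, 390, 343, 378 and 357 FPKM in sham kidneys. Ndufs1, of complex I, had 12.3, 13.1, 15, 14 and 14.1 FPKM in UUO kidneys, against 27.5, 33.9, 29.4, 26.5 and 30.1 FPKM in sham kidneys. Their log2 changes were -1.67 ± 0.13 (SE; adjusted p = 9.84e-10) and -1.05 ± 0.10 (SE; adjusted p = 1.57e-08), and complexes II (Sdhb, -1.39) and III (Cyc1, -1.45) were represented too. Genes encoded in mitochondrial DNA are among the most abundant of the table, and mt-Co1 had 6301, 8953, 6999, 8771 and 7497 FPKM in UUO kidneys, against 14630, 12503, 14157, 14579 and 14800 FPKM in sham kidneys, and mt-Nd1 had 6383, 7638, 5630, 7624 and 5974 FPKM in UUO kidneys, against 13429, 10591, 13020, 12457 and 13142 FPKM in sham kidneys. Their log2 fold changes were -0.89 ± 0.11 and -0.92 ± 0.12 as deposited, and 0.12 and 0.08 under quantile normalization. Both genes were among the most abundant in UUO and in sham kidneys. Quantile normalization gives the top ranks of every library the same values, so it cannot decide the direction of such genes. Kap, a secreted protein of the proximal tubule that depends on androgen, had the highest mean of any gene in sham kidneys, with 2747, 5434, 4582, 5376 and 2974 FPKM in UUO kidneys, against 22475, 12525, 20256, 14535 and 20128 FPKM in sham kidneys, and fell by 2.11 ± 0.30 (SE; adjusted p = 2.80e-06).

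Most nuclear receptor and coactivator genes fell, Hnf4a the furthest, while nephron transcription factors did not move in 1 direction. Hnf4a, a driver of proximal tubule identity, had 38.7, 75.8, 42, 42 and 41.5 FPKM in UUO kidneys, against 138, 152, 145, 148 and 143 FPKM in sham kidneys. The kidney of UUO mouse 2 lay far from the other UUO kidneys, between them and the sham kidneys, and the log2 change was -1.62 ± 0.14 (SE; adjusted p = 5.04e-09) with it and -1.80 without it. Ppara, the receptor that drives fatty acid oxidation, had 0.582, 1.49, 1.36, 0.76 and 1.58 FPKM in UUO kidneys, against 3.4, 4.89, 3.93, 5.76 and 2.96 FPKM in sham kidneys, and fell by 1.27 ± 0.17. Of 21 nuclear receptor and coactivator genes 14 fell and 3 rose, with a median of -0.53. Ppargc1a (PGC-1alpha, a coactivator of mitochondrial genes) fell by 0.53 ± 0.11 (SE; adjusted p = 1.89e-04) and the glucocorticoid receptor Nr3c1 rose by 0.51 ± 0.07. Pparg had 1.64, 2.29, 1.45, 1.65 and 1.54 FPKM in UUO kidneys, against 0.57, 0.585, 0.395, 0.65 and 0.501 FPKM in sham kidneys, and its rise of 0.81 ± 0.26 was not called under quantile normalization (0.24, adjusted p = 0.452). Of 23 nephron transcription factors 3 fell (13%, beside 16.7% of all genes), Lhx1 and Emx1 among them. Another 8 rose (34.8%, beside 57.9% of all genes), among them Nr2f1 at 1.08 ± 0.10 and Grhl2 at 1.00. The median was 0.21. After upper quartile rescaling, as under quantile normalization, 6 fell and 5 rose. Pax8, whose promoter drives the recombinase, had 22.6, 29.1, 19.7, 25.1 and 32.1 FPKM in UUO kidneys, against 15.6, 26, 13.5, 22.3 and 26.2 FPKM in sham kidneys and was not called (0.33 ± 0.23, SE; adjusted p = 0.199).

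Targets of PPAR receptors did not follow 1 direction. Of 23 measured, 13 fell and 4 rose, with a median of -1.04, and the study names genes of this list, so it is not independent evidence. Cd36 (-1.76), Lpl (-1.75) and the fatty acid hydroxylase Cyp4a10 (-1.98) fell, though members of the Cyp4a family may share reads. Pdk4, a kinase that shuts off pyruvate dehydrogenase, had 37.9, 33.5, 40.6, 8.28 and 12.7 FPKM in UUO kidneys, against 3.04, 3.65, 5.17, 4.18 and 3.55 FPKM in sham kidneys. Angptl4, a secreted inhibitor of lipoprotein lipase, had 45.2, 46.5, 48.7, 21.4 and 21.7 FPKM in UUO kidneys, against 11.8, 15.4, 5.63, 12.8 and 11.9 FPKM in sham kidneys. Both rose, by 2.27 ± 0.61 (SE; adjusted p = 0.00253) and 1.56 ± 0.34 (SE; adjusted p = 4.48e-04), and for both the UUO mice with lower-numbered identifiers (mice 1 to 3) lay above those with higher-numbered ones (mice 4 and 5). Among the mice with higher-numbered identifiers alone, 2 after UUO and 4 after sham surgery, the log2 fold changes were 1.15 (adjusted p = 0.00172) and 0.93 (adjusted p = 0.0434). With the number series as a covariate in all mice they were 1.80 (adjusted p = 0.00538) for Pdk4 and 1.29 (adjusted p = 6.95e-04) for Angptl4. What the number series of the identifiers stands for is not given in the labels. The lipid droplet coat gene Plin2 and the lipid carrier Fabp4, a gene of fat and endothelium, rose by 0.94 ± 0.26 and 1.49 ± 0.26.

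Detoxification genes fell on a scale close to that of transporters. Of 33 cytochrome P450 and conjugation genes 27 fell and 2 rose, with a median of -1.83, in a list that holds genes the study names and is not independent evidence. Cyp2e1, an ethanol-inducible P450, had 45.7, 324, 166, 81.3 and 173 FPKM in UUO kidneys, against 626, 656, 551, 493 and 603 FPKM in sham kidneys, and fell by 2.17 ± 0.36 (SE; adjusted p = 1.82e-05). Inmt, a methyltransferase, had 22.9, 73.6, 34.7, 38.3 and 31.1 FPKM in UUO kidneys, against 458, 427, 361, 355 and 421 FPKM in sham kidneys, and fell by 3.40 ± 0.28 (SE; adjusted p = 3.13e-09). Carboxylesterases Ces1d (-3.16), Ces1e (-3.02) and Ces1f (-2.83) fell with them, and these neighbouring paralogues may share reads. Cyp1b1, a P450 of stromal and endothelial cells, rose instead, with 31.4, 29.9, 34.5, 25.7 and 34.5 FPKM in UUO kidneys, against 2.89, 5.78, 3.26, 4.25 and 4.97 FPKM in sham kidneys, a log2 fold change of 2.64 ± 0.24 (SE; adjusted p = 9.98e-09). The other rise, Cyp2d22 at 0.57 ± 0.23, was lost after upper quartile rescaling (0.28, adjusted p = 0.302) and without UUO mouse 5 (0.42, adjusted p = 0.116).

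Among hormone and mineral genes, Kl (Klotho, the co-receptor for the phosphate hormone FGF23) had 11.1, 20, 13.4, 10.1 and 11.6 FPKM in UUO kidneys, against 51.4, 60.7, 55.7, 57.2 and 44.5 FPKM in sham kidneys, a log2 change of -1.98 ± 0.20 (SE; adjusted p = 3.45e-08). Cyp27b1, which makes active vitamin D, had 10.4, 6.13, 8.87, 8.37 and 5.41 FPKM in UUO kidneys, against 1.35, 1.35, 1.58, 1.29 and 0.794 FPKM in sham kidneys, a rise of 1.94 ± 0.24 (SE; adjusted p = 7.09e-07). Cyp24a1, which degrades it, spanned 11.7 to 36.7 FPKM in UUO kidneys and 1.51 to 16 FPKM in sham kidneys, and its rise of 1.53 ± 0.51 (SE; adjusted p = 0.0108) was not called among mice with higher-numbered identifiers (1.25, adjusted p = 0.198). Over the list of 10, 5 rose (50%, beside 57.9% of all genes) and 4 fell (40%, beside 16.7%), with a median of -0.11. In the renin-angiotensin system 4 of 8 genes fell, with a median of -0.44: Ace (angiotensin converting enzyme) by 1.30 ± 0.17, Enpep by 0.64, Agtr1a by 0.49 and Mme by 0.48. Ren1 (renin) was not called, at -0.39 ± 0.35.

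Of 19 antioxidant genes 6 rose and 8 fell, with a median of -0.22. After upper quartile rescaling 3 rose and 11 fell, with a median of -0.55, and under quantile normalization 3 rose and 7 fell. Gpx3, the plasma glutathione peroxidase made by proximal tubule cells, had 472, 766, 2559, 321 and 636 FPKM in UUO kidneys, against 6499, 1684, 5671, 7285 and 7510 FPKM in sham kidneys. The groups overlapped through sham mouse 2, far below the other sham kidneys, and UUO mouse 3, above the other UUO kidneys, and the log2 change of -2.82 ± 0.44 (SE; adjusted p = 1.09e-05) became -3.22 without that sham kidney. Gpx4, the lipid peroxide reductase that holds back ferroptosis, had 283, 286, 261, 278 and 298 FPKM in UUO kidneys, against 407, 365, 345, 319 and 385 FPKM in sham kidneys, a log2 change of -0.37 ± 0.08 (SE; adjusted p = 6.81e-04) that was lost under quantile normalization (-0.14, adjusted p = 0.11). Acsl4, which builds the lipids oxidized in ferroptosis, and Slc40a1, the iron exporter ferroportin, rose by 1.18 ± 0.15 and 1.37 ± 0.09. Nfe2l2, which encodes NRF2, rose by 0.79 ± 0.14, while its targets Nqo1 (-1.32) and Gclm (-0.96) fell and Hmox1 rose by 0.78 ± 0.27, a call lost after upper quartile rescaling (0.47, adjusted p = 0.135) and quantile normalization (0.56, adjusted p = 0.0765).

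Matrix genes rose in every class. Of 24 collagen chains 21 rose and 3 fell, with a median of 1.84. Col1a1, the main chain of fibrillar collagen, had 127, 76.6, 103, 125 and 82.8 FPKM in UUO kidneys, against 2.13, 2.71, 1.8, 2.32 and 2.41 FPKM in sham kidneys. Col3a1 had 93.4, 55.5, 99.2, 86.1 and 73.2 FPKM in UUO kidneys, against 1.57, 1.94, 1.33, 1.84 and 1.58 FPKM in sham kidneys. They rose by 4.96 ± 0.33 (SE; adjusted p = 1.44e-10) and 4.93 ± 0.30 (SE; adjusted p = 6.48e-11), and the basement membrane chain Col4a1 by 1.91 ± 0.15. The 3 that fell were Col4a3 (-1.10) and Col4a4 (-0.74), whose chains form the mature basement membrane of the glomerulus and some tubules, and Col27a1 (-0.63). Among 27 other matrix and crosslinking genes 26 rose, with a median of 1.82. Fn1 (fibronectin) had 16.6, 5.34, 18.8, 4.93 and 14.4 FPKM in UUO kidneys, against 1.47, 1.28, 1.66, 1.49 and 1.37 FPKM in sham kidneys. UUO mice 2 and 4 lay well below the other UUO kidneys, and the rise was 2.23 ± 0.28 (SE; adjusted p = 7.38e-07). Lox, which crosslinks collagen, rose by 3.96 ± 0.22 (SE; adjusted p = 1.74e-11), Tnc (tenascin C) by 3.46 ± 0.23 and Sparc by 3.11. Postn (periostin) had 0.886 to 1.75 FPKM in UUO kidneys, against 0.0516 to 0.193 FPKM in sham kidneys, with a rise of 0.92 ± 0.23 that was lost under quantile normalization (0.40, adjusted p = 0.123).

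Of 28 proteases and inhibitors 23 rose and 3 fell, with a median of 1.74, and some are genes the study names. Mmp14, a matrix protease anchored in the cell membrane, had 25.6, 18.9, 23.2, 27.1 and 28.9 FPKM in UUO kidneys, against 1.52, 1.1, 1.21, 1.21 and 1.21 FPKM in sham kidneys, and rose by 3.50 ± 0.17 (SE; adjusted p = 7.20e-12). Adamts1 (3.07) rose, and the meprins Mep1a and Mep1b, brush border proteases of the proximal tubule, fell by 1.97 ± 0.16 and 3.09 ± 0.35. Timp3, a matrix-bound inhibitor, fell by 0.98 ± 0.14, in the direction opposite to Timp1. Genes of myofibroblasts, pericytes and smooth muscle rose in 20 of 24 cases, with a median of 1.26. Acta2 (alpha smooth muscle actin) had 111, 35.3, 77.8, 40.7 and 38.1 FPKM in UUO kidneys, against 12.3, 15.2, 10.9, 11.4 and 10.4 FPKM in sham kidneys. Pdgfrb, a pericyte receptor, had 35.8, 26.2, 31.5, 32 and 32.8 FPKM in UUO kidneys, against 4.24, 4.94, 1.47, 4.06 and 1.86 FPKM in sham kidneys. Both were separate between groups, with a rise of 2.10 ± 0.28 (SE; adjusted p = 1.29e-06) for Acta2 and a mean 9.56 times that of sham kidneys for Pdgfrb (adjusted p = 2.85e-09), and Thy1 and Cdh11 reached 3.93 and 3.04. Myh11, of contractile smooth muscle, had the only fall at -0.59 ± 0.26 (SE; adjusted p = 0.0459), which was not called without any single KDM6A TubKO kidney other than those of UUO mouse 2 and sham mouse 5 (adjusted p = 0.0527 to 0.106), whereas Cnn1 (0.07) and Myl9 (0.67) were not called.

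Growth factor genes differed by family. Of 25 genes of TGF-beta and activin signalling 20 rose and 1 fell, with a median of 0.99. Tgfb1 had 19.3, 12.2, 18.4, 15.3 and 17 FPKM in UUO kidneys, against 2.59, 2.78, 2.19, 2.02 and 2.59 FPKM in sham kidneys, and rose by 2.33 ± 0.15 (SE; adjusted p = 1.23e-10). Inhbb, an activin subunit, rose by 2.84 ± 0.19 and Inhba by 2.39. Bmp7, an antagonist of TGF-beta made by tubules, had 4.06 to 6.12 FPKM in UUO kidneys, against 11 to 14.2 FPKM in sham kidneys, and fell by 1.17 ± 0.13 (SE; adjusted p = 9.23e-08). Of 10 EGF receptor ligands and receptors 5 (50%) rose, a share below the 57.9% of all genes, and 1 fell (Btc, -0.36 ± 0.13), with a median of 0.43 beside 0.39 over all genes. Under quantile normalization 3 rose and 3 fell, with a median of -0.03. The ligands Areg (2.62 ± 0.26) and Hbegf (1.98) rose, and the receptors Egfr (0.12), Erbb3 (-0.05) and Erbb4 (0.44) were not called.

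**Figure D3:**
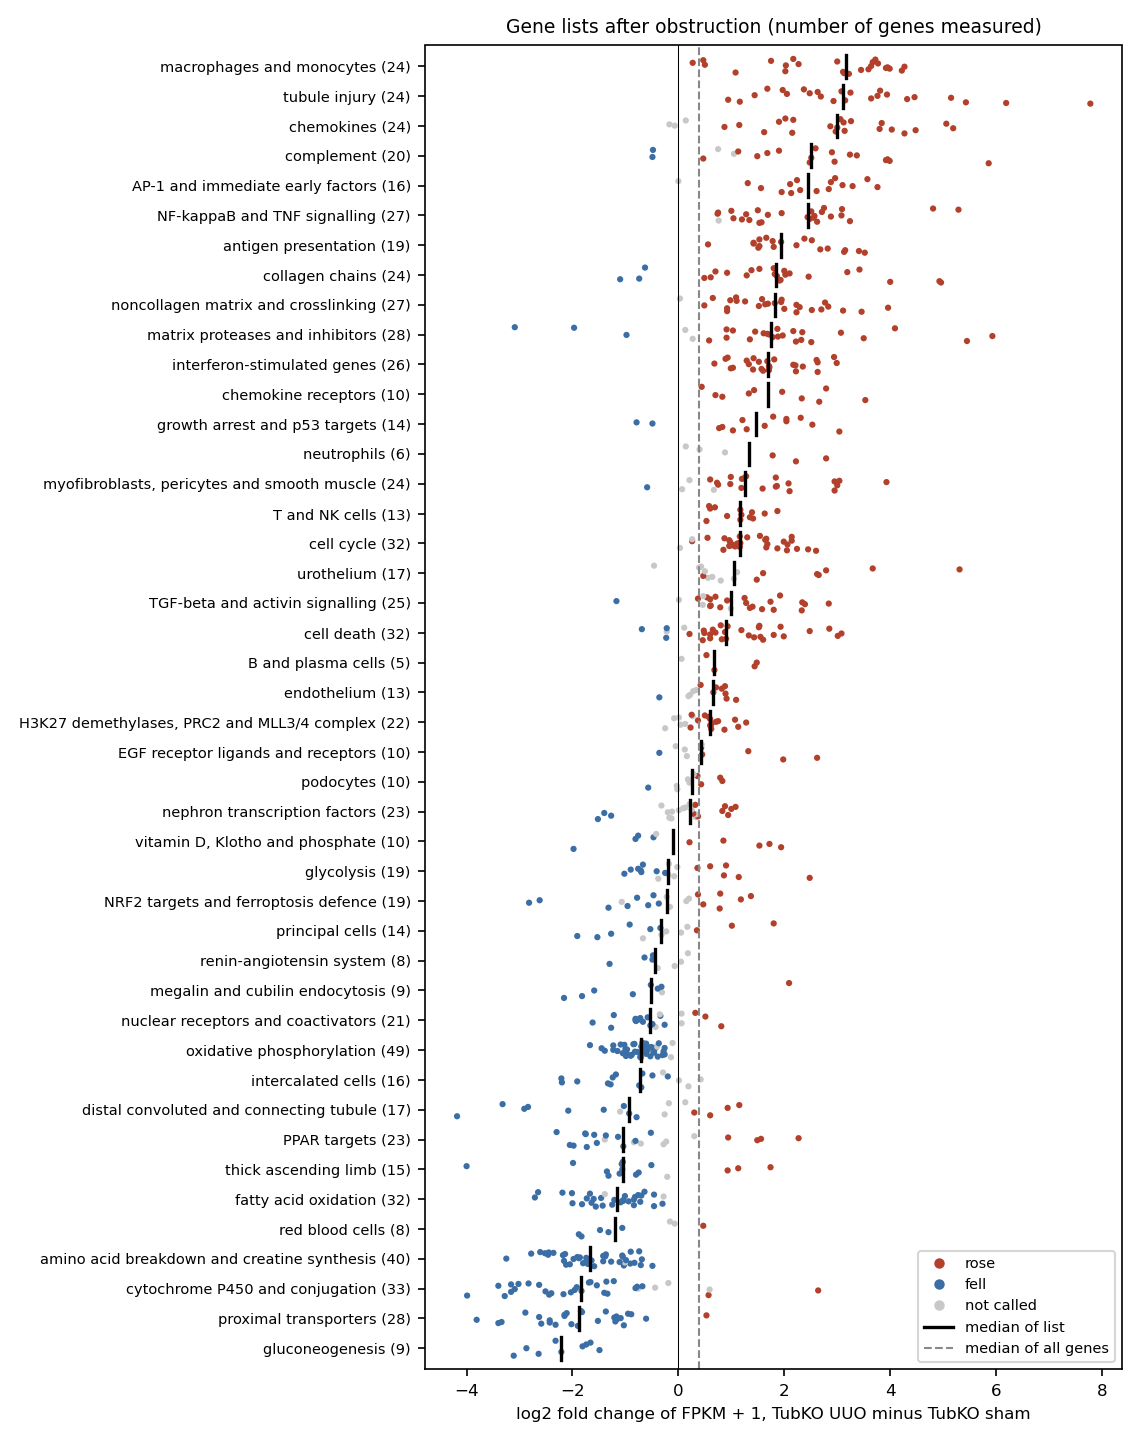
Log2 fold change (TubKO UUO minus TubKO sham) of every measured gene of 44 lists, 1 dot per gene, with the list median as a black bar and the median of all genes (0.39) as a dashed line. Macrophage, tubule injury and chemokine lists have the highest medians (3.17, 3.11 and 2.99), and gluconeogenesis, proximal transporters and cytochrome P450 the lowest (-2.21, -1.87 and -1.83).

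Most genes of chemokines, macrophages and T cells rose. Of 24 chemokines, some of them named by the study, 21 rose and none fell, with a median of 2.99. All 10 measured chemokine receptors rose (median 1.69), of 18 listed, and the others were not in the table. As genes low in sham kidneys are mostly in the table through an obstructed group, the count of 10 is not independent evidence. Ccl2, which draws monocytes through the receptor CCR2, had 23.4, 18.8, 21.9, 22.5 and 21.7 FPKM in UUO kidneys, against 0.153, 0.136, 0.339, 0 and 0.256 FPKM in sham kidneys. Cxcl1, which draws neutrophils, had 54.1, 47.9, 69.6, 34.7 and 50.8 FPKM in UUO kidneys, against 0.682, 0.231, 0.602, 0.38 and 0.879 FPKM in sham kidneys. Ccr2 had 17.7, 19.4, 19.4, 28.3 and 25.9 FPKM in UUO kidneys, against 0.783, 0.827, 1.28, 0.632 and 1.43 FPKM in sham kidneys. The kidneys were separate for each of these genes, with log2 fold changes of 4.27 ± 0.37 (SE; adjusted p = 5.51e-09), 5.06 ± 0.33 (SE; adjusted p = 1.38e-10) and 3.53 ± 0.17 (SE; adjusted p = 5.49e-12). The chemokines without a call were Ccl21a (-0.07), Ccl28 (-0.17) and Cxcl12 (0.14), which are homeostatic rather than inflammatory. Ccl5, which draws T cells, rose by 2.97 ± 0.23 (SE; adjusted p = 1.42e-09).

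All 24 measured macrophage and monocyte genes of 26 listed rose, with a median of 3.17, the highest of any list. Under quantile normalization 21 rose and 1 fell. The study names some of them, so the list is not independent. Adgre1, which encodes the F4/80 antigen, had 10.1, 11.1, 16.6, 13.5 and 14.3 FPKM in UUO kidneys, against 0.69, 0.525, 0.246, 0.524 and 0.537 FPKM in sham kidneys. C1qb, a complement subunit made by macrophages, had 194, 146, 214, 183 and 178 FPKM in UUO kidneys, against 9.92, 12.8, 9.17, 9.76 and 14.5 FPKM in sham kidneys, and both were separate between groups. Csf1r, the receptor for macrophage growth factor, had 22.1, 21.4, 22.9, 23.9 and 23.5 FPKM in UUO kidneys, against 8.72, 11.5, 10.6, 9.29 and 11.2 FPKM in sham kidneys, the smaller rise (1.08 ± 0.14 beside 3.22 ± 0.18 and 3.92 ± 0.21). The summed FPKM of the list was 771 to 1205 in UUO kidneys, against 55.5 to 75.2 in sham kidneys. All 13 measured T and NK cell genes of 19 listed rose (median 1.17), at low levels: Cd3e, a subunit of the T cell receptor complex, had 0.555, 0.703, 0.656, 0.582 and 0.539 FPKM in UUO kidneys, against 0.117, 0.127, 0.0868, 0.125 and 0.103 FPKM in sham kidneys. Cd28, Ctla4, Foxp3, Prf1, Klrb1c and Icos were not in the table. Genes this low in sham kidneys are mostly in the table through an obstructed group, so the count of 13 is not independent evidence. Among 5 B and plasma cell genes 4 rose (median 0.68), 2 under quantile normalization, and Jchain ranged from 2.58 to 18.9 FPKM in UUO kidneys, against 0.929 to 5.1 FPKM in sham kidneys. Of 6 neutrophil genes 3 (50%) rose, near the 57.9% of all genes, with a median of 1.33, and 5 rose at a pseudocount of 0.1 or with array weights. For 5 of the 6 all UUO kidneys lay above all sham kidneys, beside 50.1% of all genes. These genes are also low in sham kidneys, so the same limit of the table holds for them. The neutrophil gene S100a9 had 9.87, 19.2, 9.84, 12.7 and 27.4 FPKM in UUO kidneys, against 0.73, 1.43, 2.41, 0.928 and 1.08 FPKM in sham kidneys. Other neutrophil genes (Ly6g, Mpo, Elane) and B cell genes (Ms4a1, Pax5) were not analysed here.

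Interferon, antigen presentation and complement genes showed the same direction. All 26 interferon-stimulated genes rose (median 1.69), among them Isg15, a ubiquitin-like protein, with 43, 21.2, 41, 38.3 and 22.4 FPKM in UUO kidneys, against 4.44, 4.27, 3.1, 5.56 and 4.34 FPKM in sham kidneys. All 19 antigen presentation genes rose (median 1.94). H2-Aa, a chain of MHC class II, had 307, 266, 332, 426 and 315 FPKM in UUO kidneys, against 28.2, 32.2, 22, 23.8 and 32.8 FPKM in sham kidneys, a rise of 3.52 ± 0.24 (SE; adjusted p = 2.03e-10), and the immunoproteasome subunit Psmb8 rose by 2.52 ± 0.18. Of 20 complement genes, which include C1qa, C1qb and C1qc of the macrophage list and genes the study names, 16 rose and 2 fell, with a median of 2.50. Those that fell were Cfb (factor B, -0.49 ± 0.13) and Cd55 (-0.48 ± 0.16), which speeds the decay of complement convertases. C4b, C1s1 and Serping1 rose by 2.51, 2.95 and 2.59.

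Of 27 genes of NF-kappaB and TNF signalling 26 rose (median 2.44), as did 15 of 16 AP-1 and immediate early factors (median 2.45). Nfkb2, a subunit of NF-kappaB, had 28.4, 20, 23.1, 21.4 and 23.1 FPKM in UUO kidneys, against 3.14, 3.41, 3.27, 3.22 and 3.55 FPKM in sham kidneys, a rise of 2.48 ± 0.12 (SE; adjusted p = 3.79e-12). Icam1, an adhesion molecule induced by it, had 41.3, 36.5, 34.3, 35.5 and 38.2 FPKM in UUO kidneys, against 4.49, 5.81, 5.3, 5.36 and 6.21 FPKM in sham kidneys. Tnfrsf12a, the receptor of the cytokine TWEAK, rose by 3.24 ± 0.22 and Socs3, an inhibitor of cytokine signalling, by 4.81. Atf3, a stress-induced factor, had 15.3, 15.4, 20.2, 17.8 and 26.9 FPKM in UUO kidneys, against 0.442, 0.187, 0.722, 0.443 and 0.552 FPKM in sham kidneys. Jun had 65.5, 65.9, 62.6, 67 and 69.2 FPKM in UUO kidneys, against 7.22, 9.14, 29.8, 9.73 and 16.1 FPKM in sham kidneys, and sham mouse 3 had the highest level among sham kidneys. Their log2 fold changes were 3.76 ± 0.24 (SE; adjusted p = 1.14e-10) and 2.30 ± 0.28 (SE; adjusted p = 4.93e-07), and Myc rose by 2.96 ± 0.21.

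Promoters were read to set these factor families beside the sequence before their genes. The sequences are RefSeq's for GRCm38.p6, 250 bases before each gene start, and 10699 of the 13827 gene symbols (77.4%) had at least 1. Each motif was searched on both strands, a gene counted if any of its starts held it, no motif is part of another, and TGANTCA reads the same on both strands. The AP-1 motif TGANTCA stood in the promoters of 6.22% of the genes that rose and 5.46% of those that fell, beside 5.91% of all tested genes. The NF-kappaB motif (GGGA, any base, TTTCC) stood in 0.552% and 0.446%, beside 0.505% of all. The HNF4 motif CAAAGTCCA stood in 0.422% of the 6162 genes that rose and 0.613% of the 1795 genes that fell, beside 0.458% of all. These shares are descriptions without a test. Most of the genes with the largest changes held none of these letters: of the 15 genes with a promoter among the 10 largest rises and 10 largest falls, 2 held the AP-1 motif and none held another. Shown here are those 2, Mmp7 (chr9:7691840-7692089, plus strand, 1 of 2 starts) and Sprr2f (chr3:92364937-92365186, plus strand), with the chemokine Cxcl1 (chr5:90890995-90891244, plus strand) for the NF-kappaB motif. Capitals mark the motif, which begins 63 bases before the start in Mmp7, 197 in Sprr2f and 71 in Cxcl1, and the last base of each line is the base before the start.
Mmp7: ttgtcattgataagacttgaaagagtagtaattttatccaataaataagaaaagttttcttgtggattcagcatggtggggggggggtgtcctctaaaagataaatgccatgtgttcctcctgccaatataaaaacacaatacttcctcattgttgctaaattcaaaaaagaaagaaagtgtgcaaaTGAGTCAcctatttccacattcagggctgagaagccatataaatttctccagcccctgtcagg
Sprr2f: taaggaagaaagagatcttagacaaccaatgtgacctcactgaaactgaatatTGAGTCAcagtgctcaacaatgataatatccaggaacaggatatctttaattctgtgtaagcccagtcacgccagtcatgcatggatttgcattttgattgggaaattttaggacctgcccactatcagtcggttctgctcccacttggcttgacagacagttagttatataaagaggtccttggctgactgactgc
Cxcl1: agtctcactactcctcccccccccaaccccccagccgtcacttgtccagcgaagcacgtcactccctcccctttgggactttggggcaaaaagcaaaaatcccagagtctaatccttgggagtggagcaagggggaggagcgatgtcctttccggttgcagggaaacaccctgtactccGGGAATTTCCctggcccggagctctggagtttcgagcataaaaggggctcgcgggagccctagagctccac

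Cell cycle genes rose while inhibitors of the cycle rose with them. Of 32 cell cycle genes 30 rose and none fell, with a median of 1.16. Mki67, a marker of cycling cells, had 11.2, 6.65, 9.21, 6.37 and 4.08 FPKM in UUO kidneys, against 0.48, 0.498, 0.185, 0.234 and 0.344 FPKM in sham kidneys. Top2a, the topoisomerase of dividing cells, had 6.31, 3.62, 5.59, 3.35 and 1.9 FPKM in UUO kidneys, against 0.269, 0.147, 0.113, 0.211 and 0.19 FPKM in sham kidneys. The rises were 2.60 ± 0.22 (SE; adjusted p = 3.10e-09) and 2.05 ± 0.19 (SE; adjusted p = 1.37e-08), and UUO mouse 5 was the lowest for both. Foxm1, a transcription factor of mitosis, was 1 of the 2 genes without a call, at 0.0626 to 0.217 FPKM in UUO kidneys and 0.0635 to 0.148 FPKM in sham kidneys (0.03 ± 0.10, SE; adjusted p = 0.825). The other was Ccnd1 (0.26). Of 14 genes of growth arrest and p53 targets 12 rose (median 1.46) and 2 fell (Ccng1 and Sesn2). Cdkn1a, the cycle inhibitor p21, had 22.7, 19.3, 22.3, 18.1 and 24.3 FPKM in UUO kidneys, against 1.46, 1.55, 1.78, 2.19 and 1.57 FPKM in sham kidneys, and rose by 3.04 ± 0.27 (SE; adjusted p = 6.39e-09).

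Of 32 cell death genes 27 rose and 3 fell, with a median of 0.89. Genes of apoptosis, pyroptosis and necroptosis were among those that rose. Gsdmd, whose protein forms the pyroptosis pore, had 17.5, 16.9, 16.9, 22.1 and 18.7 FPKM in UUO kidneys, against 1.41, 1.55, 1.58, 1.89 and 2.07 FPKM in sham kidneys. Mlkl, the executor of necroptosis, had 4.74, 4.51, 4.68, 4.32 and 4.33 FPKM in UUO kidneys, against 0.584, 0.607, 0.167, 0.307 and 0.63 FPKM in sham kidneys. Casp4, an inflammatory caspase, and Ripk3 rose by 3.08 ± 0.12 and 1.52 ± 0.13, beside 2.85 ± 0.16 (SE; adjusted p = 2.73e-11) and 1.93 ± 0.11 (SE; adjusted p = 2.99e-11). Of the genes that promote apoptosis, Pmaip1 (NOXA) and Bbc3 (PUMA) rose by 3.01 and 1.99. Bax had a smaller change of 0.46 ± 0.13 (SE; adjusted p = 0.00473), close to the median of all genes, and lost its call after upper quartile rescaling (0.15, adjusted p = 0.307) and under quantile normalization (0.21, adjusted p = 0.155). Cycs (cytochrome c, also a respiratory chain protein), Bid and Gsdme fell, at -0.69, -0.23 and -0.22, and Bid lost its call without any of several single kidneys (adjusted p = 0.11 without sham mouse 4).

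Among the enzymes that write and remove the KDM6A substrate mark and their partners, 16 of 22 rose (72.7%, beside 57.9% of all genes) and none fell. The median was 0.59, close to the 0.39 of all genes. After upper quartile rescaling 10 rose and 3 fell, and under quantile normalization 8 rose and 6 fell. Ezh2, the methyltransferase of cycling cells, had 2.6, 2.42, 2.97, 2.97 and 2.34 FPKM in UUO kidneys, against 0.98, 0.577, 0.601, 0.592 and 0.595 FPKM in sham kidneys, a rise of 1.13 ± 0.08 (SE; adjusted p = 3.33e-10). Ezh1, its counterpart in resting cells, had 7.54, 6.55, 6.96, 6.49 and 7.49 FPKM in UUO kidneys, against 5.38, 6.03, 5.97, 6.44 and 5.23 FPKM in sham kidneys. Its rise of 0.23 ± 0.08 turned to -0.05 after upper quartile rescaling and -0.20 under quantile normalization. Kdm6b, the other active H3K27 demethylase, had 10, 9.46, 8.74, 9.71 and 10.8 FPKM in UUO kidneys, against 5.26, 6.46, 7.31, 5.93 and 5.1 FPKM in sham kidneys, a rise of 0.62 ± 0.10 (SE; adjusted p = 1.94e-05). Uty, the Y-linked paralogue of Kdm6a with little demethylase activity, had 1.37, 2.6, 2.96, 1.41 and 1.4 FPKM in UUO kidneys, against 2.15, 2.28, 2.63, 2.47 and 2.6 FPKM in sham kidneys. It was not called (-0.25 ± 0.14, SE; adjusted p = 0.109) as deposited, and it was called lower after upper quartile rescaling (-0.47, adjusted p = 0.00467), under quantile normalization (-0.82, adjusted p = 6.30e-05), with the number series as a covariate (-0.33, adjusted p = 0.0353), among the mice with higher-numbered identifiers (-0.54, adjusted p = 0.00166) and without UUO mouse 2 (-0.33, adjusted p = 0.0391) or mouse 3 (-0.37, adjusted p = 0.0149). Kmt2d, the catalytic subunit of the MLL4 complex, rose by 1.07 and Mtf2 by 1.28 ± 0.22.

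Markers of other structures differed in how far they moved. Of 10 podocyte genes 4 rose (40%, below the 57.9% of all genes) and 1 fell (median 0.25). After upper quartile rescaling 2 rose and 1 fell, and under quantile normalization 2 rose and 2 fell (median -0.19). Among mice with higher-numbered identifiers 1 rose and 1 fell. Nphs1 (nephrin, of the slit diaphragm) was not called (-0.02 ± 0.17) except under quantile normalization (-0.59, adjusted p = 0.00306). Cdkn1c, a cycle inhibitor of mature podocytes, rose by 0.79 ± 0.20 (SE; adjusted p = 0.00122) with overlapping groups. Of 13 endothelial genes 8 rose (61.5%, near the 57.9% of all genes) and 1 fell, with a median of 0.66 that was 0.36 after upper quartile rescaling, with Pecam1 at 15.2, 13.6, 15.9, 13.5 and 13.7 FPKM in UUO kidneys, against 6.04, 7.19, 5.19, 6.92 and 5.84 FPKM in sham kidneys, and Kdr, the VEGF receptor, at 3.74, 4.76, 4.49, 3.24 and 3.6 FPKM in UUO kidneys, against 4.78, 6.37, 4.69, 5.63 and 5.31 FPKM in sham kidneys. The log2 fold changes were 1.09 ± 0.16 (SE; adjusted p = 5.46e-06) and -0.36 ± 0.11 (SE; adjusted p = 0.00847). Urothelial markers, of the lining of the renal pelvis and ureter, were measured at 17 genes, and the study names some of them. Of these, 8 rose (47.1%, below the 57.9% of all genes) and none fell. Their median was 1.05, but 0.69 without UUO mouse 2, and 5 rose under quantile normalization, with a median of 0.53. The rises included Krt5, a basal keratin, with 11, 25.3, 2.77, 10.2 and 11.9 FPKM in UUO kidneys, against 0.575, 1.45, 0.183, 1.43 and 0.561 FPKM in sham kidneys, and the uroplakin Upk3a was not called, with 2.46, 8.73, 0.738, 0.797 and 4.01 FPKM in UUO kidneys, against 2.72, 0.903, 0.686, 2.38 and 0.871 FPKM in sham kidneys. Upk1b was called at 1.48 ± 0.65 (SE; adjusted p = 0.0477) but not without UUO mouse 1 (1.53, adjusted p = 0.0621), 2 (1.14, adjusted p = 0.132) or 5 (1.25, adjusted p = 0.114), nor without sham mouse 1 (1.48, adjusted p = 0.0702), 3 (1.32, adjusted p = 0.0998), 4 (1.58, adjusted p = 0.0534) or 5 (1.40, adjusted p = 0.0854). The summed FPKM of the list was 157 to 461 in UUO kidneys, against 14.1 to 58.8 in sham kidneys. How much of the sum came from the pelvis left in each sample was not tested. Sprr2f, described above, is on this list and had 25.1 to 81.9 FPKM in UUO kidneys.

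Blood and neighbouring tissues were checked in the same way. Of 8 red blood cell genes 5 fell and 1 rose (median -1.19), with a summed FPKM of 145 to 364 in UUO kidneys, against 518 to 1039 in sham kidneys. Hba-a2, an alpha globin, had 90, 88.6, 28.8, 51.2 and 75.9 FPKM in UUO kidneys, against 185, 311, 284, 267 and 146 FPKM in sham kidneys. The part of retained blood in other results was not tested. Perirenal fat genes did not move as a list (1 of 9 rose, 1 fell, median 0.22), and the summed FPKM was 58.8 to 90.5 in UUO kidneys, against 75.3 to 126 in sham kidneys. Mylpf, the 1 gene of the skeletal muscle list that was measured, had 0.397 to 0.789 FPKM in UUO kidneys, against 0.632 to 1.71 FPKM in sham kidneys, and fell by 0.45 ± 0.12. Of 4 adrenal genes 1 rose, Mc2r at 0.82 ± 0.12, and the list summed to 1.33 to 2.08 FPKM in UUO kidneys, against 0.303 to 0.472 FPKM in sham kidneys. Of 12 genes often used as controls 8 rose (66.7%, beside 57.9% of all genes) and 3 fell (25%, beside 16.7%), with a median of 0.37. After upper quartile rescaling 5 rose and 4 fell. Actb rose by 1.55 ± 0.19 (SE; adjusted p = 4.49e-07), whereas Gapdh, Pgk1 and Sdha fell.

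The 5 UUO kidneys did not respond equally. On the first principal component of the 10 kidneys, which held 81.5% of the variance, the UUO kidneys scored 66.8, 39.3, 58.4, 61.6 and 59.6, and the sham kidneys scored between -58.1 and -56.3. UUO mouse 2 lay nearest to the sham kidneys on the falling lists with the lowest medians, though not for megalin and cubilin, principal cell or glycolysis genes. Its median difference from the sham mean was -1.17 for proximal transporters, against -1.72 to -2.01 in the other UUO kidneys. For gluconeogenesis it was -1.32, against -1.90 to -3.14, for cytochrome P450 and conjugation -0.91, against -1.60 to -2.43, and for fatty acid oxidation -0.67, against -1.06 to -1.48. On the rising lists it differed less, with 2.65 for tubule injury, against 2.84 to 3.46, 2.82 for chemokines, against 2.90 to 3.10, and 2.86 for macrophages, against 3.23 to 3.46. For urothelial genes it was the highest, at 2.04, against 0.28 to 1.67. Pairs of UUO kidneys correlated across genes at r = 0.957 to 0.973, and pairs of sham kidneys at r = 0.981 to 0.988, as a description across genes of log2 values. Without UUO mouse 2, 7940 genes rose and 2327 fell, and 32 of 32 fatty acid oxidation genes, 40 of 40 amino acid genes, 45 of 49 oxidative phosphorylation genes and 27 of 28 proximal transporters fell, while 24 of 24 tubule injury genes and 7 of 17 urothelial genes rose. UUO mice 1 to 3 and sham mouse 1 carry lower-numbered identifiers, and the others higher-numbered ones in a separate number series, so series and surgery are partly confounded. The full number before the hyphen of an identifier was never shared between UUO and sham kidneys, so it cannot be told apart from surgery. UUO mice 1 to 3 shared that number, as did sham mice 2 and 3 and sham mice 4 and 5, and the labels do not say what it stands for. With the series as a covariate 7942 genes rose and 2273 fell, and among the 6 mice with higher-numbered identifiers alone 7000 rose and 2192 fell.

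**Figure D4:**
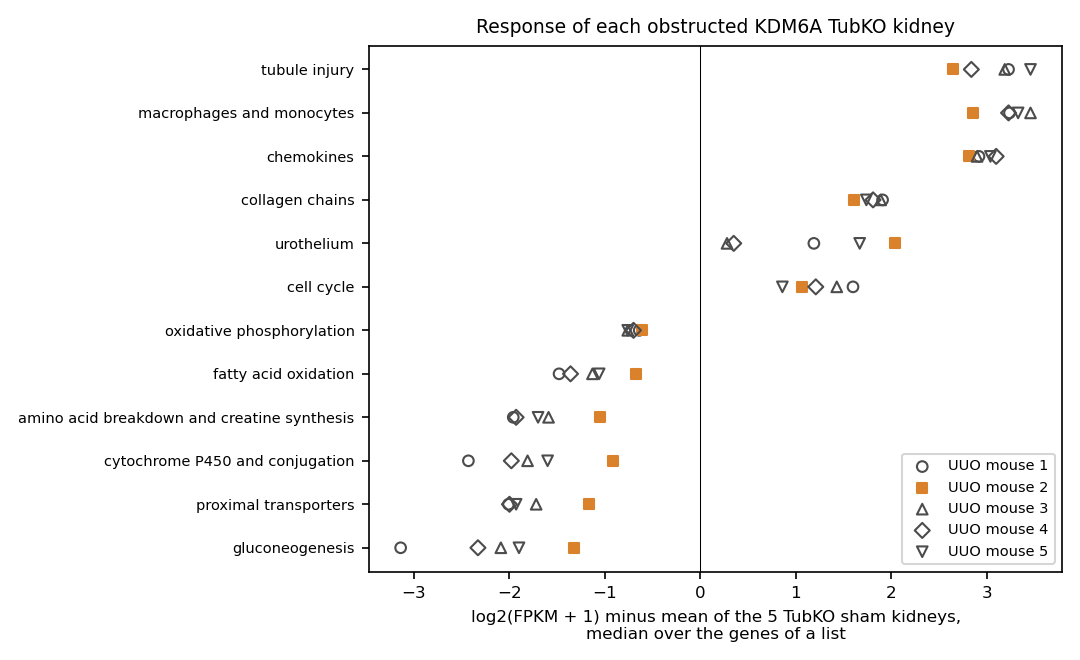
Median over the genes of a list of the difference in log2(FPKM + 1) between each of the 5 UUO kidneys and the mean of the 5 sham kidneys of KDM6A TubKO mice, 1 mark per UUO kidney. UUO mouse 2 (filled squares) lies nearest to 0 for proximal transporters (-1.17), gluconeogenesis (-1.32) and cytochrome P450 (-0.91), and farthest from 0 for urothelium (2.04).

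Whether the response differed from that of KDM6A Ctrl kidneys was tested gene by gene, as the obstruction effect in KDM6A TubKO kidneys minus that in KDM6A Ctrl kidneys. Only 4 of 13842 genes passed (0.0289%) in limma, with 2171 genes at an unadjusted p under 0.05. Foxm1 had 0.217, 0.114, 0.198, 0.0626 and 0.0938 FPKM in UUO kidneys, against 0.118, 0.148, 0.0635, 0.144 and 0.102 FPKM in sham kidneys. In the controls it had 0.92, 1.71, 1.63, 0.673 and 1.32 FPKM in KDM6A Ctrl UUO kidneys, against 0.142, 0.108, 0.259, 0.0662 and 0.0708 FPKM in KDM6A Ctrl sham kidneys, so the KDM6A Ctrl UUO kidneys alone stood apart, and the difference between responses was -0.95 ± 0.15 (SE; adjusted p = 0.0167). Atp5e, a small subunit of ATP synthase, had 39.1, 28.5, 37.3, 31.3 and 28.6 FPKM in UUO kidneys, against 74, 53.5, 54.5, 52.2 and 67.6 FPKM in sham kidneys. It had 37.4, 40.2, 34.5, 39.9 and 37.3 FPKM in KDM6A Ctrl UUO kidneys, against 27.9, 32.5, 34, 38.6 and 33.3 FPKM in KDM6A Ctrl sham kidneys, and the group that stood apart was that of KDM6A TubKO sham kidneys, with a difference of -1.04 ± 0.16 (SE; adjusted p = 0.0167). Rbak, a zinc finger repressor that binds the retinoblastoma protein, had 5.55, 4.97, 5.39, 6.6 and 6.2 FPKM in UUO kidneys, against 2.02, 2.14, 2.13, 2.15 and 2.31 FPKM in sham kidneys. Its level was 3.24, 3.05, 3.29, 3.85 and 4.32 FPKM in KDM6A Ctrl UUO kidneys, against 2.69, 2.38, 2.55, 2.43 and 2.27 FPKM in KDM6A Ctrl sham kidneys, a difference of 0.70 ± 0.11 (SE; adjusted p = 0.0167). Gm6133, a gene model without a known role, had 2.95, 2.34, 3.11, 4.17 and 3.36 FPKM in UUO kidneys, against 0.339, 0.028, 0.413, 0.458 and 0.543 FPKM in sham kidneys, and 1.31, 0.861, 1.17, 1.42 and 1.23 FPKM in KDM6A Ctrl UUO kidneys, against 0.522, 0.337, 0.795, 0.421 and 0.893 FPKM in KDM6A Ctrl sham kidneys, a difference of 1.15 ± 0.18 (SE; adjusted p = 0.0167). Both Rbak and Gm6133 rose in each genotype, and by more in KDM6A TubKO kidneys.

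These calls were fragile. None of the 4 passed without UUO mouse 5 (adjusted p = 0.0527 for each). Without UUO mouse 2, 49 genes were higher and 47 lower, without KDM6A Ctrl sham mouse 4, 42 and 29, and without KDM6A Ctrl UUO mouse 5, 21 and 7. Leaving out any other single kidney gave 2 to 5 genes that were higher and 2 to 6 that were lower. Gm6133 was also not called at a pseudocount of 0.1 (adjusted p = 0.0797), nor Foxm1 under quantile normalization (-0.76, adjusted p = 0.0774). For the lists, the responses are given side by side. Median log2 fold changes were 3.11 in KDM6A TubKO and 3.10 in KDM6A Ctrl kidneys for tubule injury, -1.87 and -1.41 for proximal transporters, -1.67 and -1.28 for amino acid breakdown, -2.21 and -1.55 for gluconeogenesis, and -1.83 and -1.33 for cytochrome P450. They were -1.15 and -1.15 for fatty acid oxidation, -1.04 and -1.27 for PPAR targets, -0.72 and -0.76 for intercalated cells, and -0.52 and -0.55 for megalin and cubilin. For oxidative phosphorylation they were -0.70 in KDM6A TubKO and -0.39 in KDM6A Ctrl kidneys. Of its 49 genes 31 had an unadjusted interaction p under 0.05 in limma, beside 2171 of all 13842 genes. Atp5e alone of the list passed the adjustment. Set against the KDM6A TubKO sham mean, the list's median was -0.76 to -0.61 in KDM6A TubKO UUO kidneys and -0.73 to -0.61 in KDM6A Ctrl UUO kidneys. In KDM6A Ctrl sham kidneys it was -0.41 to -0.16, below that mean, while the UUO kidneys of both genotypes overlapped. The sham groups of both genotypes also differ in their mix of number series, and its part in these medians was not tested. For urothelium the medians were 1.05 (0.69 without UUO mouse 2) and 2.40, with summed FPKM of 157 to 461 in KDM6A TubKO UUO kidneys and 290 to 2248 in KDM6A Ctrl UUO kidneys, and for red blood cells -1.19 and -0.04. No list was tested as a whole, and a gene outside the 4 is not shown to respond alike in both genotypes.

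**Figure D5:**
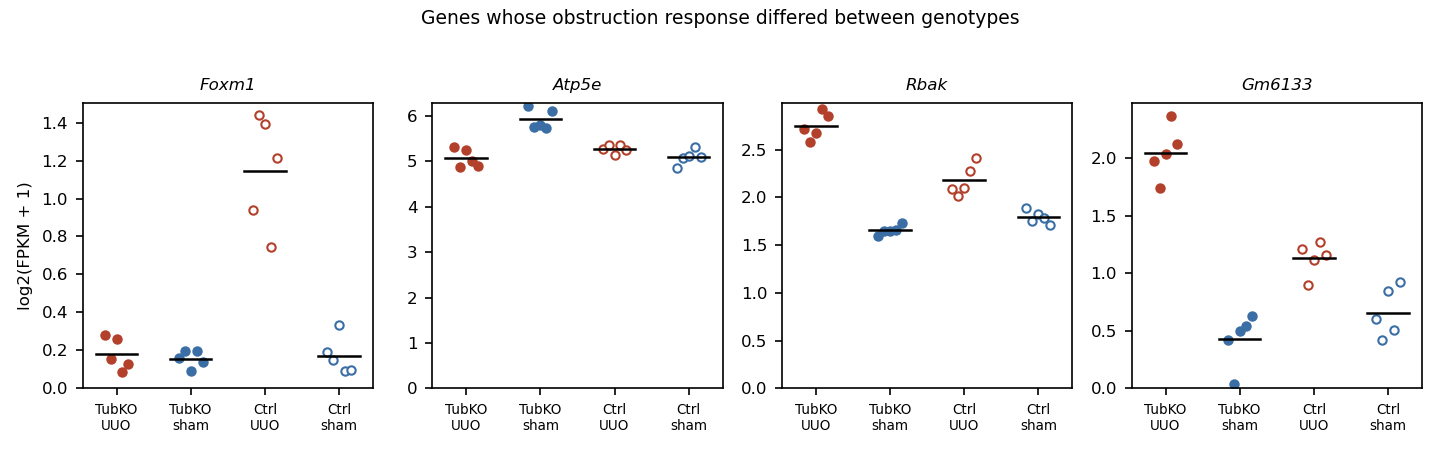
Level of the 4 genes whose obstruction response differed between genotypes, as log2(FPKM + 1) in each of 20 kidneys, 5 per group; filled circles are KDM6A TubKO, open circles KDM6A Ctrl, red UUO, blue sham, and the bar is the group mean. Foxm1 is high in KDM6A Ctrl UUO kidneys alone, and Atp5e is highest in KDM6A TubKO sham kidneys.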

How the data were processed

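RNA from whole left kidneys was sequenced in 20 libraries, 1 per mouse, and the 10 of KDM6A TubKO mice are described. The deposited gene table holds FPKM values that the authors made. The submitters' processing notes name cutadapt, HISAT2, StringTie and the build GRCm38, and the paper's methods name Ballgown; versions and read counts are not given in the sources used here, so depth is unknown. A deposited transcript table of FPKM was not used. No gene had a highest group mean under 0.5 FPKM, so no gene was removed.

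Values were analysed as log2(FPKM + 1), with a pseudocount of 1. Fold changes understate changes of low genes. limma 3.58.1 in R 4.3.3 fitted a mean for each of the groups to the 20 kidneys together, with a variance trend, and p-values were adjusted by Benjamini-Hochberg over 13842 genes, with calls at 0.05. The difference between genotypes was the interaction contrast. Tables and plots used Python 3.11.15, pandas 2.3.3, numpy 2.4.6, scipy 1.17.1 and matplotlib 3.10.9. The fit was tested on simulated data. The p-values set a difference between group means against the spread between mice of the same group. That spread is pooled over all groups, KDM6A Ctrl included, and drawn toward a trend over genes. The fit takes each mouse as independent of the others.

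Members and gene lists were chosen with earlier results of these data known. Genes named were the 10 largest rises and 10 largest falls among called genes whose groups did not overlap, key genes of each list, the called members of each list with the largest rise and fall and those against its majority, interaction genes, and the 5 most abundant genes per group. Some genes this rule selects are not reported here, and any other gene was named after its values were seen. Alternatives were a pseudocount of 0.1, no filter and a filter at 1 FPKM, upper quartile and quantile scaling, a fit of the KDM6A TubKO groups alone, array weights, the number series of mouse identifiers as a covariate, the mice with higher-numbered identifiers alone, an F-test with a library-size term, and leaving out each mouse.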

Additional observations from a re-analysis of the deposited data

Results flagged for a closer look

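In 248 groups of 5 kidneys (124 genes, in UUO and in sham kidneys of KDM6A TubKO mice: those with the largest changes, the key genes of the lists, the interaction genes and the most abundant genes), the highest or lowest kidney was far from the others in 14, by Dixon's ratio above 0.71. Chance marks about 1 in 20 groups. UUO mouse 2 was the kidney in 3 of the 14, with Hnf4a at 75.8 FPKM, against 38.7 to 42 FPKM in the other UUO kidneys, Nccrp1 at 8.78 FPKM, against 1.1 to 1.95 FPKM, and Pvalb at 0.708 FPKM, where the other UUO kidneys were listed at 0. Among the other UUO kidneys, mouse 3 had 17.3 FPKM of the fractalkine receptor gene Cx3cr1, against 10.5 to 12 FPKM, and mouse 5 had 36.8 FPKM of Sox9, against 22.1 to 24.6 FPKM, and 8.01 FPKM of Ppargc1a, against 11.2 to 12.3 FPKM.

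Sham mouse 5 was the kidney in 4 of the 14. It had 1.43 FPKM of Ccl12, against 0 to 0.188 FPKM in the other sham kidneys, 0.169 FPKM of Fosl1 and 0.159 FPKM of Sprr2f, both listed at 0 in the others, and 16.1 FPKM of Slc26a4, against 20.6 to 21.7 FPKM. Sham mouse 1 had 0.98 FPKM of Ezh2, against 0.577 to 0.601 FPKM, and 96.6 FPKM of Slc5a2, against 47.5 to 56.2 FPKM. Sham mouse 2 had 1684 FPKM of Gpx3, against 5671 to 7510 FPKM, and 12503 FPKM of mt-Co1, against 14157 to 14800 FPKM.

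The response to obstruction differed between KDM6A TubKO and KDM6A Ctrl kidneys, by limma's test of the difference itself, for Atp5e (-1.04 on the log2 scale), Foxm1 (-0.95), Gm6133 (1.15) and Rbak (0.70), each at an adjusted p of 0.0167.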

How the results depend on the processing

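As deposited, 8020 genes rose and 2307 fell, and 2 genes were higher and 2 lower in the test of the difference between genotypes. After upper quartile rescaling 3669 fell, 2138 were lower at the study's threshold, and 6 were higher in the difference between genotypes, while Ezh1 turned to -0.05. Under quantile normalization 4384 rose and 4835 fell, 2436 were higher and 2616 lower at the study's threshold, and 1 gene was lower in the difference between genotypes, while Ezh1 turned to -0.20, Foxm1 to -0.29, Fxyd4 to 0.00, Stk39 to -0.07, mt-Co1 to 0.12 and mt-Nd1 to 0.08. In the F-test with a library-size term 1 gene rose (Ccl5) and 0 fell, and 633 were higher and 134 lower at the study's threshold, with 1656 genes at an unadjusted p under 0.05. The study's own counts from Ballgown at that threshold were far above those of this F-test. They were close to the 5002 higher and 1366 lower of limma without the library-size term. Why the F-test here gave fewer was not tested. The number of genes higher in the difference between genotypes was 1 at a pseudocount of 0.1 and 8 with the number series as a covariate, and the number lower was 4 with array weights and 7 with that covariate. Leaving out 1 mouse at a time gave 7795 to 7940 genes that rose, 2180 to 2327 that fell, 4919 to 5159 higher and 1298 to 1450 lower at the study's threshold, and 0 to 49 higher and 0 to 47 lower in the difference between genotypes. Of 202 named genes, 202 kept their direction and their side of the threshold at a pseudocount of 0.1, 184 after upper quartile rescaling, 175 under quantile normalization and 10 in the F-test. Without 1 or more single KDM6A TubKO mice, Bid, Btc, Cyp2d22, Fxyd4, Keap1, Myh11, Pkm, Srxn1, Stk39 and Upk1b lost their calls, and Scnn1g and Uty gained one. The causes were not tested. No paired analysis was possible because the labels carry no replicate numbers shared between groups. FPKM hold no counts, so what depth limits is unknown.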
